A study of Mus musculus with 51 samples.

Results

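The regions described here were 1713 sites of H3K9 acetylation called in zygonema, away from transcription start sites (TSSs) and without a called H3K4me3 peak. They were chosen by the called peaks themselves. Of the 16003 H3K9ac peaks of zygonema, 8654 lay within 500 bp of the 5′ end of a GENCODE M21 transcript and were set aside. Of the other 7349, called distal here, 5636 overlapped a peak of at least 1 of the 10 H3K4me3 (EpiCypher) lists by 1 bp or more. The remaining 1713 were 10.7% of all zygonema H3K9ac peaks (exact 95% interval 10.2 to 11.2) and 23.3% of the distal ones (22.3 to 24.3). The absence of H3K4me3 and of a TSS was the rule of choice and is no finding.

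Nuclei were sorted by flow cytometry from formaldehyde-fixed whole testis of adult male wild-type C57Bl/6J mice, with antibodies to intra-nuclear markers of meiotic prophase, into leptonema (LE), zygonema (ZY), early pachynema (EP), late pachynema (LP) and diplonema (DI). ChIP-Seq of each population gave 20 lists of called peaks on chromosomes 1 to 19 of mm10, with 238528 peaks. H3K4me3 was measured in experiments 1 and 2 of each stage (10 lists). The lists used here for H3K9ac are from experiment 1, and those for an Abcam antibody that binds H3K4me2 as well as H3K4me3 (H3K4me2/3) from experiment 2, with 1 list per stage each and so no replicates. A sorted population is enriched for its stage and not free of others, and leptonema came from a separate sort. By the purities the study lists, zygonema of experiment 2, used for H3K4me2/3, was less pure than zygonema of experiment 1 and than leptonema. The antibody field of the 5 H3K9ac samples names an anti-H3K4me3 product, whereas their titles say H3K9Ac and the study's methods give the same catalogue number for anti-H3K9ac, so they were taken as H3K9ac. A list holds no read count or score, so the depth behind a call is unknown, and all intervals below cover counting error over sites only.

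Acetylation of histone H3 lysine 9 is placed by acetyltransferases at active promoters and enhancers, and bromodomain proteins read acetylated histones. H3K4me3 marks active promoters, and at enhancers H3K4 is mostly mono- or dimethylated. In mouse spermatocytes the DNA-binding methyltransferase PRDM9 adds H3K4me3 at the hotspots where SPO11 makes meiotic double-strand breaks, so that distal H3K4me3 in early prophase is largely a mark of hotspots.

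The central 200 bp of 7 of the sites are shown (GRCm38.p6, plus strand, 5′ to 3′), to show hotspot words and motifs in place. They were picked among the widest sites of their kind that held the word or motif marked, so its presence is no finding. Base composition differed between sites with and without leptonema H3K4me2/3, and 7 windows chosen in this way cannot stand for that difference. In the sequences of the first set, capitals mark words, on either strand, that were frequent at zygonema H3K4me3 sites (hotspot words, defined with the results on sequence). The first lacks a leptonema H3K4me2/3 peak, the next 2 lack an H3K4me2/3 peak at every stage, and the fourth had an H3K4me2/3 peak at every stage.
chr7:47024691-47024890, intergenic, nearest 5′ end of Gm32031: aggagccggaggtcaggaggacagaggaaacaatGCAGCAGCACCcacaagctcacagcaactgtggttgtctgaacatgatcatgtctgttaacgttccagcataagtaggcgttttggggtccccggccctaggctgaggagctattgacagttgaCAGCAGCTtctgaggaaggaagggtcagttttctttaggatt
chr4:40820300-40820499, intron of B4galt1: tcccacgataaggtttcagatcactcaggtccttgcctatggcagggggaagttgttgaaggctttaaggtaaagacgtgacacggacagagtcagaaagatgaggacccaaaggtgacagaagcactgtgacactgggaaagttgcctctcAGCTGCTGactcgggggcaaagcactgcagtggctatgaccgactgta
chr13:45836279-45836478, intron of Atxn1: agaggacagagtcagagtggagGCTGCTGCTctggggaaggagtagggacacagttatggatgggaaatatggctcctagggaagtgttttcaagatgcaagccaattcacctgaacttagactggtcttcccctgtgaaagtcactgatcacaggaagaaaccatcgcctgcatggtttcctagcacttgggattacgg
chr15:80706321-80706520, intergenic, nearest 5′ end of Tnrc6b: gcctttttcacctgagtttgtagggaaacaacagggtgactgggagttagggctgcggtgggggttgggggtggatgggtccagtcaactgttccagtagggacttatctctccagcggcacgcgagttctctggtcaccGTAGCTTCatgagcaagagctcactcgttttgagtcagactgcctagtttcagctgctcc

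The second set comes from sites with an H3K4me2/3 peak in both leptonema and zygonema. Capitals mark a match to an ETS factor motif (CCGGAAGT) in the first and second of these, and to the CTCF motif (CCANNAGNNGGC) in the third.
chr19:23153317-23153516, intron of Klf9: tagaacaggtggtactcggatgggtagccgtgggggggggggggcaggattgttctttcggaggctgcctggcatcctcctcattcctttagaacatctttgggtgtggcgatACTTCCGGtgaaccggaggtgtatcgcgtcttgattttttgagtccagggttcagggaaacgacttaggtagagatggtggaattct
chr4:99465123-99465322, intergenic, nearest 5′ end of Gm12684: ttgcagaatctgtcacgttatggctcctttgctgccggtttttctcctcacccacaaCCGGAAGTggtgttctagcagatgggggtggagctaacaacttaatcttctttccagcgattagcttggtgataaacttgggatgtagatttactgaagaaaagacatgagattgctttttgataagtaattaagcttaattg
chr12:99084161-99084360, intergenic, nearest 5′ end of Gm47116: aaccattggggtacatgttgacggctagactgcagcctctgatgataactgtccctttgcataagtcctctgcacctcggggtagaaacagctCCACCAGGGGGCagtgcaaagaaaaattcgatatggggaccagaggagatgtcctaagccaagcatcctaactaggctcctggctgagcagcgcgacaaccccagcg

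The sites were divided by overlap with the H3K4me2/3 peaks of leptonema and of zygonema. A peak in both was found at 593 sites (34.6%, exact 95% interval 32.4 to 36.9), in zygonema only at 328 (19.1%, 17.3 to 21.1) and in leptonema only at 175 (10.2%, 8.82 to 11.7). At 617 sites (33.7 to 38.3%) neither list had a peak. By stage, 44.8% of the sites had an H3K4me2/3 peak in leptonema (42.5 to 47.2) and 53.8% in zygonema (51.4 to 56.1). The shares were 22.5% at early pachynema (20.6 to 24.6), 15.3% at late pachynema (13.6 to 17.1) and 12.8% at diplonema (11.2 to 14.5). Over all zygonema H3K9ac peaks, the same shares were 80.1%, 91.3%, 56.7%, 54.1% and 52.7% in stage order, so that fewer of the sites without H3K4me3 were called at each stage than of the whole list. At TSS peaks the H3K4me2/3 share lay between 88.7% and 98.3%.

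**Figure D1:**
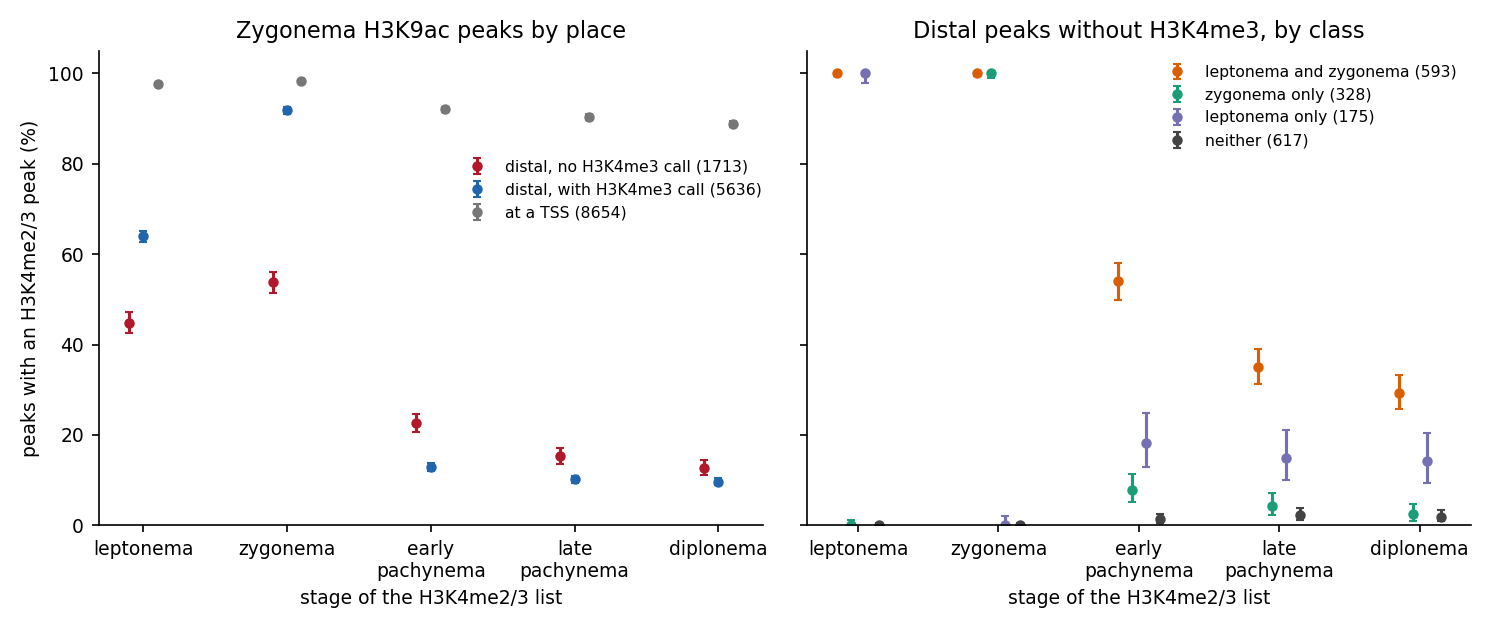
Share of zygonema H3K9ac peaks with an H3K4me2/3 peak (%, y axis) in the list of each stage (x axis), for the 3 places of the peaks (left) and for the 4 classes of distal peaks without H3K4me3 (right). Points are shares with exact 95% intervals, numbers in the key count peaks, and leptonema and zygonema values at right are 0% or 100% by the definition of the classes. Distal peaks without H3K4me3 lie below those with H3K4me3 in leptonema and zygonema, and above them in the later stages, an order that is the opposite in the later stages without the H3K4me3 library of zygonema experiment 1 (10.6% against 20.3% in early pachynema).

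The mean share was 49.3% ± 6.32 (SD, n = 2 lists) over leptonema and zygonema and 16.9% ± 5.06 (SD, n = 3 lists) over the later stages. Each list is 1 library of a different stage, so the SD is a spread between stages and not between replicates. The permutations below have the same limit. Both early lists lay above all 3 later lists, by 32.4 points in the mean (two-sided exact permutation over the lists, p = 0.1, which is the lowest value that 2 lists against 3 can give, so a threshold of 0.05 could not be passed). The leptonema and zygonema lists were also the longest, with 30943 and 29114 peaks against 17561 to 19711. When the same number of the widest peaks was taken from each list, the difference was 6.45 points (exact permutation test, p = 0.3), with 22.8% of the sites in leptonema, 22.3% in zygonema and 22.5% in early pachynema, so that the early lists no longer lay above all later ones. This step removed narrow peaks from every list but that of early pachynema, the shortest. In zygonema the H3K4me2/3 peaks at the sites were narrow (median 604 bp, against 836 bp over the list). List length and peak width cannot be told apart in this way. At the distal peaks with H3K4me3, the shares were 64.0%, 91.8%, 12.9%, 10.2% and 9.58% in stage order, an early-minus-later difference of 67.0 points. The difference at the sites without H3K4me3 was 34.6 points smaller (two-sided exact permutation over the 5 lists, p = 0.1, again the lowest value possible). The groups were split by their H3K4me3 calls, and the H3K4me2/3 antibody also binds H3K4me3. A lower early share without H3K4me3 is therefore not independent of the rule of choice. In both zygonema and leptonema the share was lower without H3K4me3 under every setting tried. In the 3 later stages it was higher here, but this direction turned without the H3K4me3 library of zygonema experiment 1. Then 10.6%, 7.19% and 6.13% of 3866 sites without H3K4me3 had a peak in stage order, against 20.3%, 16.0% and 15.0% of 3483 with it. It turned too when H3K4me3 had to be called in 2 or more libraries (13.5% against 17.2% in early pachynema) and with the wider H3K4me2/3 peaks only (4.96% against 5.80%).

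The combinations of stages were uneven. No stage had an H3K4me2/3 peak at 593 sites (34.6%), against 6.46% of the distal peaks with H3K4me3. A peak in zygonema alone was found at 298 sites, in leptonema and zygonema alone at 228, in leptonema, zygonema and early pachynema alone at 131, and in leptonema alone at 127. All 5 stages had a peak at 126 sites (7.36%), a share close to the 7.65% of the distal peaks with H3K4me3. A peak in leptonema or zygonema and none later was found at 38.1% of the sites (35.8 to 40.5), and at 78.9% of the distal peaks with H3K4me3. A peak in at least 1 later stage was found at 27.3% (25.2 to 29.4), against 14.6%. Without zygonema H3K4me3 experiment 1 these shares were 13.0% and 22.6%, the opposite order.

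The later lists were not used to form the classes, and the classes differed in them. Among the 593 sites with H3K4me2/3 in leptonema and zygonema, 54.0% had one at the early pachynema stage (49.9 to 58.0), 35.1% at late pachynema (31.2 to 39.1) and 29.3% at diplonema (25.7 to 33.2). Among the 328 sites with a peak in zygonema only, these shares were 7.93% (5.24 to 11.4), 4.27% and 2.44%. The 175 sites with a peak in leptonema only had 18.3% (12.9 to 24.8), 14.9% and 14.3%. Of the 617 sites with neither, 8, 14 and 12 had a peak (2.27% in late pachynema and 1.94% in diplonema). The interval of the first class lay above those of the other 3 classes at each later stage, and the intervals do not cover differences between libraries. Without zygonema H3K4me3 experiment 1, the early pachynema shares were 28.0%, 1.93%, 14.7% and 0.961% in the order of the classes above.

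An H3K4me2/3 peak that overlapped one of the sites was narrower than most of its list. In zygonema its median width was 604 bp, against 836 bp over the list, and in early pachynema 571 bp against 864 bp. The peak covered 50% or more of the H3K9ac peak at 74.8% of the 921 sites that had one in zygonema. It also reached an H3K4me3 peak at 121 of these (13.1%, 11.0 to 15.5) and a TSS window at 49 (5.32%). At 137 of the 921 (14.9%) it reached either, so that at the other sites the H3K4me2/3 peak itself was distal and without an H3K4me3 call.

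The choice of the sites rested on 1 library in particular. Of the 5636 distal peaks with H3K4me3, 2411 overlapped a peak in a single library, and for 2153 of them (38.2% of 5636) that library was zygonema experiment 1, the longest H3K4me3 list. Without it the rule gave 3866 sites, and an H3K4me2/3 peak was present at 70.1% of these for zygonema, 37.0% for leptonema and 10.6% for early pachynema, and 24.2% were in the class with neither. Leaving out any other H3K4me3 library gave between 1713 and 1866 sites. When an H3K4me3 site had to be called in 2 or more libraries to count, 4017 sites were chosen.

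The H3K9ac peaks at these sites were narrow. Their median width was 359 bp (widest 2511 bp), against 746 bp for the distal peaks with H3K4me3 and 930 bp at TSSs. A wide peak meets an H3K4me3 peak or a TSS window more easily than a narrow one. The difference in width is therefore not independent of the rule of choice. The smallest width in the list was found at 239 of the sites (14.0%, exact 95% interval 12.3 to 15.7), at 2.36% of the distal peaks with H3K4me3 and at 1.38% of the TSS peaks. Only 97 of the sites were among the wider peaks of the zygonema list, split at its median of 787 bp. Between the classes the medians were 391 bp (leptonema and zygonema), 385.5 bp (zygonema only), 300 bp (leptonema only) and 310 bp (neither), and 18.8% of the last class were at the smallest width. Width moved with the H3K4me2/3 calls. Of 4 groups of sites of like size by width, the narrowest (up to 218 bp) had a zygonema H3K4me2/3 peak at 44.2% of its sites (39.4 to 49.0), and the widest (532 to 2511 bp) at 63.2% (58.4 to 67.7). Among the 97 sites above the median of the list it was 78.4%. The part of weak calls in these numbers was not tested.

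**Figure D2:**
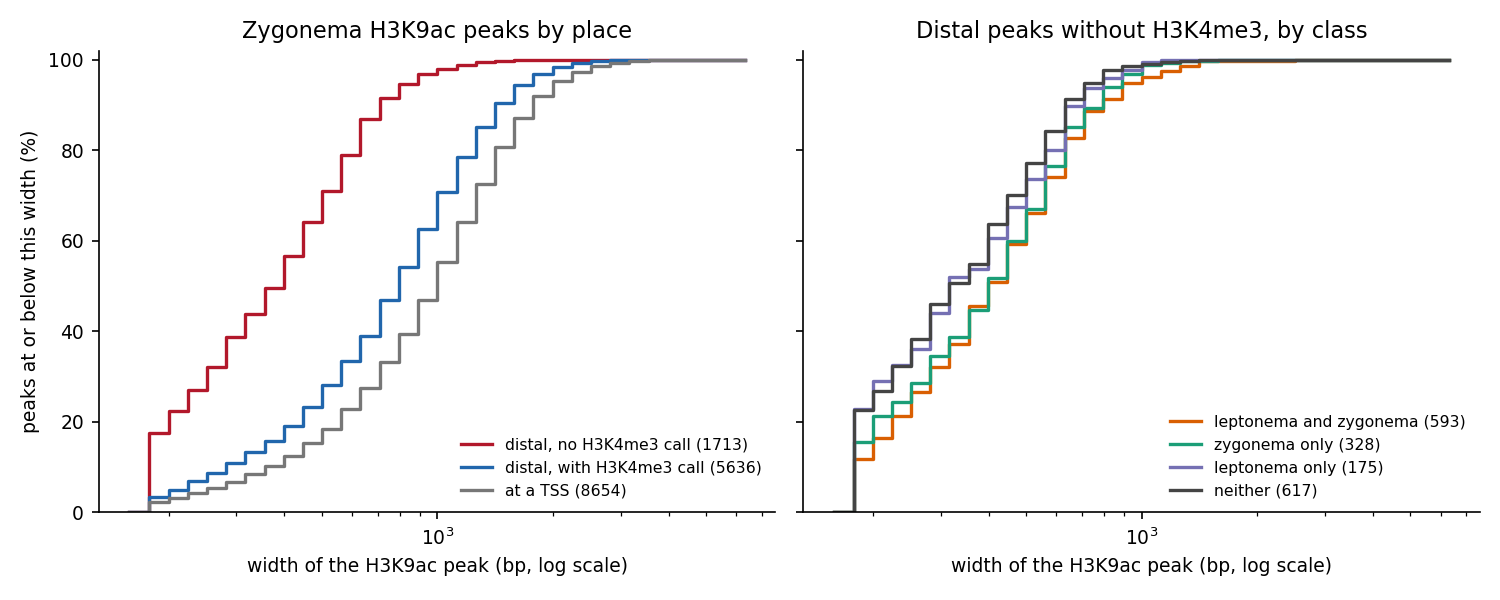
Cumulative share of zygonema H3K9ac peaks (%, y axis) at or below each width (bp, log scale, x axis), by place (left) and by H3K4me2/3 class of the distal peaks without H3K4me3 (right). The curve of the 1713 distal peaks without H3K4me3, with a median of 359 bp, lies left of the other places, an order not independent of the rule of choice.

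By the position of its centre, a site lay in an intron in 47.1% of cases (806 sites), between genes in 42.8% (734), in a coding exon in 5.08% (87), in a UTR in 2.69% (46) and in a noncoding exon in 2.34% (40). The distal peaks with H3K4me3 were intronic in 55.5% and intergenic in 36.7% of cases. The classes fell into pairs. Sites with H3K4me2/3 in leptonema and zygonema were intergenic in 51.4% (47.3 to 55.5) and intronic in 33.6% of cases, and those in leptonema only in 54.9% and 34.3%. Sites with H3K4me2/3 in zygonema only were intergenic in 36.6% and intronic in 56.4% of cases, and those with neither in 34.5% (30.8 to 38.4) and 58.7%. Coding exons held 9.61% of the first class (7.36 to 12.3) and 2.76% of the last (1.61 to 4.37).

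The gap to the nearest annotated 5′ end had a median of 10351 bp (up to 422347 bp), close to the 10418.5 bp of the distal peaks with H3K4me3. It was under 1000 bp at 83 sites (4.85%) and beyond 50 kb at 152 (8.87%). In its median it differed little between classes, from 9805 bp (leptonema and zygonema) to 11418.5 bp (zygonema only). RefSeq transcripts, which were not used by the rule, had a 5′ end within 500 bp of 66 sites (3.85%) and of 217 distal peaks with H3K4me3 (also 3.85%). This share was 6.41% (4.57 to 8.69) in the class with leptonema and zygonema and 1.78% (0.893 to 3.17) in the class with neither.

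The nearest H3K4me3 site, from the merged peaks of the 10 lists, was at a median distance of 16685 bp (range 3 to 800944 bp). It lay within 1 kb of 212 sites (12.4%, 10.9 to 14.0), within 5 kb of 395 (23.1%) and within 50 kb of 1368 (79.9%). Within 1 kb it was found at 16.2% of the class with H3K4me2/3 in zygonema only (12.3 to 20.6) and at 10.7% of that with neither (8.37 to 13.4). At 44.9% of the sites this nearest H3K4me3 site was at a TSS, and at 13.6% it was zygonema-restricted, that is, called by both zygonema experiments and by no library from early pachynema on. It had been called in 1 library only at 42.1% of the sites and in all 10 at 11.3%. Over all zygonema H3K9ac peaks, these shares were 58.2%, 20.6%, 22.9% and 22.2% in the same order. For the distal peaks with H3K4me3 they were 2.09%, 47.8%, 41.0% and 0.674%. In those groups the nearest H3K4me3 site can be one that the peak overlaps. The H3K4me2/3 share in zygonema hardly changed with this distance, from 57.5% within 1 kb (50.6 to 64.3) to 55.4% beyond 50 kb (49.9 to 60.7), and their intervals overlapped. In diplonema it was 19.3% within 1 kb (14.3 to 25.3) and 9.86% beyond 50 kb (6.92 to 13.5).

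**Figure D3:**
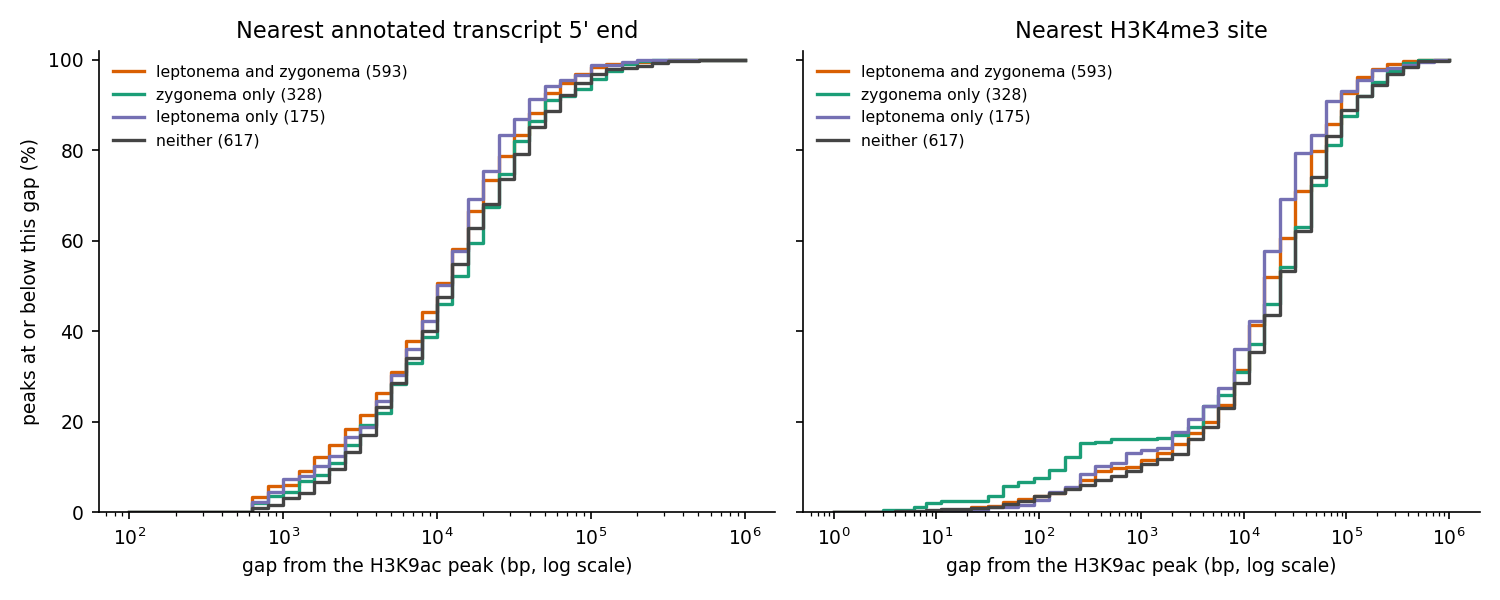
Cumulative share of the distal zygonema H3K9ac peaks without H3K4me3 (%, y axis) by the gap (bp, log scale, x axis) to the nearest GENCODE M21 transcript 5′ end (left) and to the nearest merged H3K4me3 site (right), for the 4 H3K4me2/3 classes. The curves start at 500 bp at left and above 0 bp at right by the rule, the classes run close together at left, and at right the zygonema-only class is highest within 1 kb (16.2%) and the leptonema-only class further out (median gap 14267 bp, against 19604 bp with neither).

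In base composition the classes stood apart more clearly. The median GC content was 51.9% with H3K4me2/3 in leptonema and zygonema, 50.0% in leptonema only, 45.7% in zygonema only and 46.0% with neither, against 41.9% over the autosomes. The ratio of observed CpG dinucleotides to the number predicted from the C and G content, which is high in CpG islands and low in most of the methylated genome, had medians of 0.450, 0.397, 0.177 and 0.187 in the same order (0.301, 0.356, 0.170 and 0.174 without zygonema H3K4me3 experiment 1). The median was 0.188 at the distal peaks with H3K4me3, close to that of the classes without leptonema H3K4me2/3. A ratio of 0.6 or more was found at 20.9% of the sites with leptonema and zygonema H3K4me2/3 (17.7 to 24.4), at 12.0% of those with leptonema only, and at 3.35% and 3.40% of the others. It was found at 81.3% of the TSS peaks.

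Read the other way, the H3K4me2/3 calls rose with the CpG ratio, and in percentage points they rose most in leptonema. Among the 567 sites with a ratio under 0.2, 11.3% had a leptonema peak (8.80 to 14.2), 38.3% a zygonema peak (34.3 to 42.4) and 2.12% an early pachynema peak. Among the 969 sites between 0.2 and 0.6, these shares were 57.7%, 58.7% and 29.1%. Among the 177 sites at 0.6 or more they were 81.9% (75.4 to 87.3), 76.3% (69.3 to 82.3) and 52.0% (44.4 to 59.5). At the low ratios the zygonema interval lay above that of leptonema, and at the high ratios the intervals overlapped. Repeats went the other way. Of the sites, 128 (7.47%) had 50% or more of their bases in masked repeats, which was 2.53% of the class with leptonema and zygonema (1.42 to 4.14) and 11.3% of the class with neither (8.95 to 14.1). The share was 8.32% at the distal peaks with H3K4me3 and 4.00% over all zygonema H3K9ac peaks. Without these 128 sites, 47.1% of the other 1585 had a leptonema peak and 54.9% a zygonema peak.

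Hotspot words were taken from other sites: the 10 words of 8 bp with the largest excess, centre over flank, at the 3125 distal zygonema-restricted H3K4me3 sites, which hold none of the sites described here. They were GCAGCAGC, GCAGCACC, CAGCAGCA, GATGCTGC, AGCTGCTG, GATGCTAC, CAGTAGCA, GAAGCTAC, AGCAGCAG and GCTGCTAC, counted on both strands, and several overlap each other. The central 200 bp held a word at 31.5% of those source sites, against 7.25% in windows of the same length centred 750 bp to either side (flanks). Over all zygonema H3K9ac peaks the share was 16.8%. It was 16.6% (14.8 to 18.4) at the sites without H3K4me3, against 7.33% in their flanks, a centre share close to the background of the list. The distal peaks with H3K4me3 had 22.0% (20.9 to 23.1). Of these 5636 peaks, 2694 (47.8%) lay at a zygonema-restricted H3K4me3 site, so this group overlaps the source of the words.

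The classes differed in the words. The share was 22.6% (18.2 to 27.5) with H3K4me2/3 in zygonema only, which was near that of the distal peaks with H3K4me3, and 17.5% (14.6 to 20.7) with neither. It was 13.7% (11.0 to 16.7) with leptonema and zygonema and 12.0% (7.58 to 17.8) with leptonema only. The flanks of the 4 classes had 8.23%, 7.94%, 6.24% and 7.14% in this order. TSS peaks had 13.4% against 7.11%, so a centre above the flank was not particular to distal sites. Without zygonema H3K4me3 experiment 1, the centre share was still highest with H3K4me2/3 in zygonema only (24.35%) and lowest with leptonema only (14.22%). The other classes changed order, with 18.98% for leptonema and zygonema (16.81 to 21.3) and 18.14% for neither (15.73 to 20.76). Their intervals overlapped, so the order of these classes depended on that library. Single words differed in how they were spread over the groups. GATGCTAC was found at 2.13% of the sites with zygonema H3K4me2/3 only, 0.169% of those with leptonema and zygonema, 2.34% of the distal peaks with H3K4me3 and 0.462% of the TSS peaks. CAGTAGCA was found at 3.05%, 0.337%, 2.84% and 0.381% of the same groups, and GAAGCTAC at 2.13%, 0.843%, 2.15% and 0.451%. GCTGCTAC did not follow them, with 0.915%, 1.52%, 2.15% and 0.890%. These shares in the zygonema-only class rest on 3 to 10 sites each, and the words were picked for description after their values were seen.

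**Figure D4:**
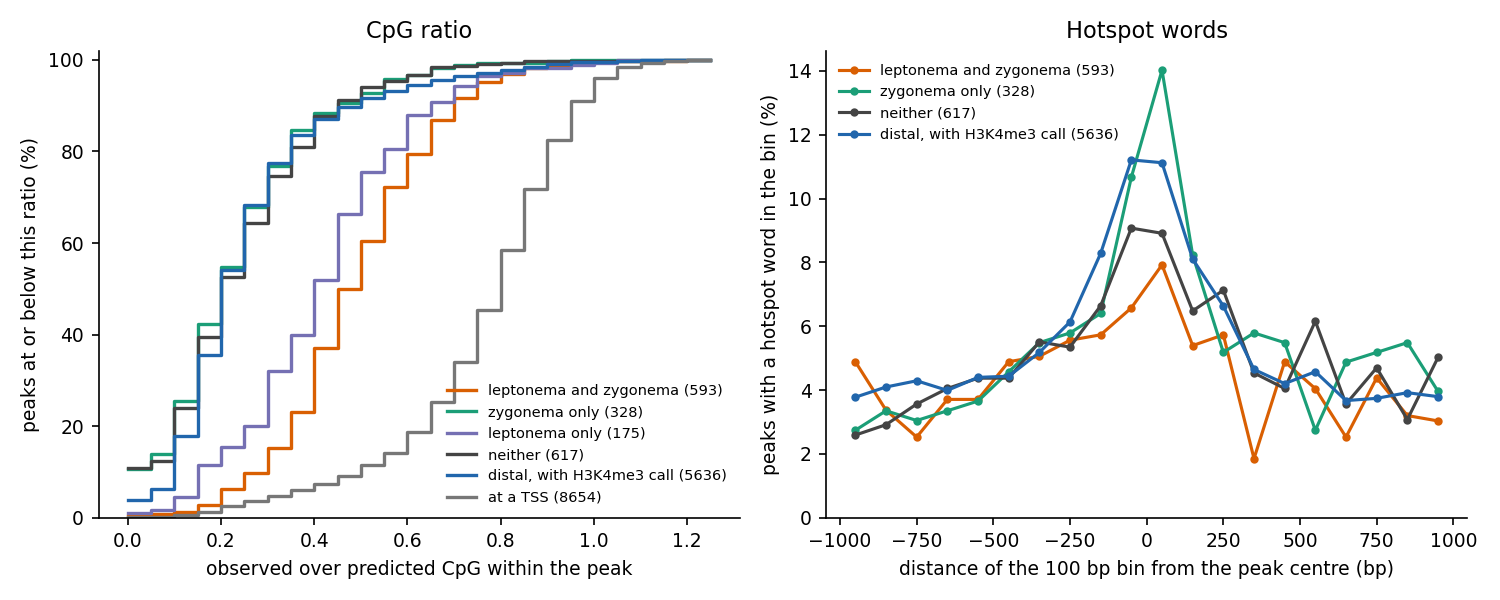
Left, cumulative share of peaks (%, y axis) at or below each ratio of observed to predicted CpG (x axis). Right, share of peaks with a hotspot word (%, y axis) in 100 bp bins by distance from the peak centre (bp, x axis). The classes with leptonema H3K4me2/3 lie between TSS peaks and the other distal peaks in CpG ratio (medians 0.450 and 0.397), and hotspot words peak at the centre in all 4 groups drawn at right.

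Letters of motifs known from promoters and insulators were searched in the same windows, on both strands. The ETS motif CCGGAAGT, bound by a large family of activators, was at 26 sites (1.52%, 0.994 to 2.22) against 0.263% in the flanks, and at 2.84% of all zygonema H3K9ac peaks. The distal peaks with H3K4me3 had it at 0.532% (0.359 to 0.759) and the TSS peaks at 4.60%. Of the 26, 19 were in the class with leptonema and zygonema (3.20%, 1.94 to 4.96) and 0 in the class with zygonema only (exact upper limit 1.12%). The flanks of these 2 classes had 0.590% and 0.152%. This motif holds a CpG, and the CpG ratio also differed between these classes (medians 0.450 and 0.177). Whether the 2 differences are linked was not tested. The CTCF motif CCANNAGNNGGC, of the insulator protein that anchors chromatin loops, was at 51 sites (2.98%, 2.22 to 3.90), with 2.31% in the flanks and 1.70% over all zygonema H3K9ac peaks. It was at 5.06% of the class with leptonema and zygonema (3.44 to 7.14), whose flanks had 2.87%, and at 0.915% of the class with zygonema only. The NRF1 motif GCGCNTGCGC was at 8 sites (0.467%), at 0.373% of the distal peaks with H3K4me3, and over all zygonema H3K9ac peaks at 2.67%. The AP-1 motif TGANTCA (5.14%) and the E-box CACGTG (3.21%) were as frequent as in the flanks (5.20% and 3.21%). Over all zygonema H3K9ac peaks these 2 motifs were at 3.78% and 4.03%, and at the distal peaks with H3K4me3 at 6.05% and 2.32%. The cyclic AMP response element TGACGTCA was at 3 sites (0.175%), with 0.146% in the flanks and 0.787% over all zygonema H3K9ac peaks. Of the distal peaks with H3K4me3, 0.177% held it. A match is a string of letters and shows no binding.

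Few of the sites carried a called H3K9ac peak at another stage. A leptonema H3K9ac peak overlapped 1 site (0.0584%), an early pachynema peak 37 (2.16%, 1.53 to 2.97), and late pachynema and diplonema peaks 0 (exact upper limit 0.215%). Over all zygonema H3K9ac peaks, these shares were 17.1%, 40.9%, 9.74% and 2.51%. The lists were of unequal length, with 2823 peaks in leptonema, 7744 for early and 1727 for late pachynema, and 516 for diplonema. The distal peaks with H3K4me3 had 1.26%, 4.01%, 0.852% and 0.727%. The same rule applied to the other H3K9ac lists gave 10 peaks in leptonema, 310 in early pachynema (39.0% of its 794 distal peaks), 9 in late pachynema and 2 in diplonema. Of the 310 in early pachynema, 34 overlapped one of the zygonema sites.

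Of the 37 sites with H3K9ac in early pachynema, 29 had H3K4me2/3 in leptonema and zygonema, 5 in leptonema only, 3 in zygonema only and 0 in neither. An early pachynema H3K4me2/3 peak was found at 36 of the 37. The 5 widest were at Srcin1 (chr11:97511621-97512950, 1330 bp), which encodes an inhibitor of SRC kinase signalling, overlapping Pcdh1, a protocadherin of cell adhesion (chr18:38185180-38186505, 1326 bp), near the galanin receptor gene Galr1 (chr18:82391026-82392145, 1120 bp), at Prdm6 (chr18:53574797-53575889, 1093 bp), a PRDM family member, and near Tnrc6b (chr15:80706005-80706836, 832 bp), which encodes a scaffold of the miRNA silencing complex. The Prdm6 site had H3K4me2/3 peaks in leptonema, zygonema and early pachynema, and the other 4 had them in all 5 stages. The site with H3K9ac in leptonema (chr10:83202860-83203387) was intergenic and had H3K4me2/3 at every stage.

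The widest sites of each class show the range of their surroundings. With H3K4me2/3 in leptonema and zygonema, the widest lay in an intron of Dapk2 (chr9:66240945-66243455, 2511 bp), a calmodulin-regulated kinase gene of cell death, with no H3K4me2/3 peak later and a CpG ratio of 0.149. The second, intergenic on chromosome 1 (chr1:179918486-179920446, 1961 bp), had H3K4me2/3 until late pachynema. The fifth (chr12:56058759-56060059, 1301 bp) was intergenic and had H3K4me2/3 until early pachynema. With H3K4me2/3 in zygonema only, the widest were in introns of Fgf12 (chr16:28538458-28539984, 1527 bp), a fibroblast growth factor homologue that modulates sodium channels, and of Ehd4 (chr2:120093947-120095141, 1195 bp), an endocytic trafficking gene. Of the other 3, all intergenic, the site at chr7:64065615-64066676 had H3K4me2/3 again in the 3 later stages, and those at chr7:47024248-47025333 and chr2:180115403-180116375, near Osbpl2, held a hotspot word.

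With H3K4me2/3 in leptonema only, the widest was intergenic (chr13:58654927-58656017, 1091 bp), and the second lay in a UTR of the zinc finger gene Zfp385a (chr15:103313929-103314890, 962 bp). The next 3 (919, 901 and 872 bp) were intergenic on chromosomes 3 and 9 and in an intron of Arl15 on chromosome 13. None of these 5 had H3K4me2/3 at another stage. With neither, the widest lay in introns of Mlxip (chr5:123403131-123404442, 1312 bp), a glucose-responsive transcription factor gene, Ahi1 (chr10:21041944-21043166, 1223 bp), a gene of the primary cilium, B4galt1 (chr4:40819833-40820966, 1134 bp), a galactosyltransferase gene, the noncoding gene Gm27169 (chr8:87211550-87212593, 1044 bp) and Atxn1 (chr13:45835874-45836883, 1010 bp), the ataxin 1 gene. In all 5 the H3K4me2/3 lists were empty at every stage, and the sites in B4galt1 and Atxn1, shown above, held a hotspot word.

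**Figure D5:**
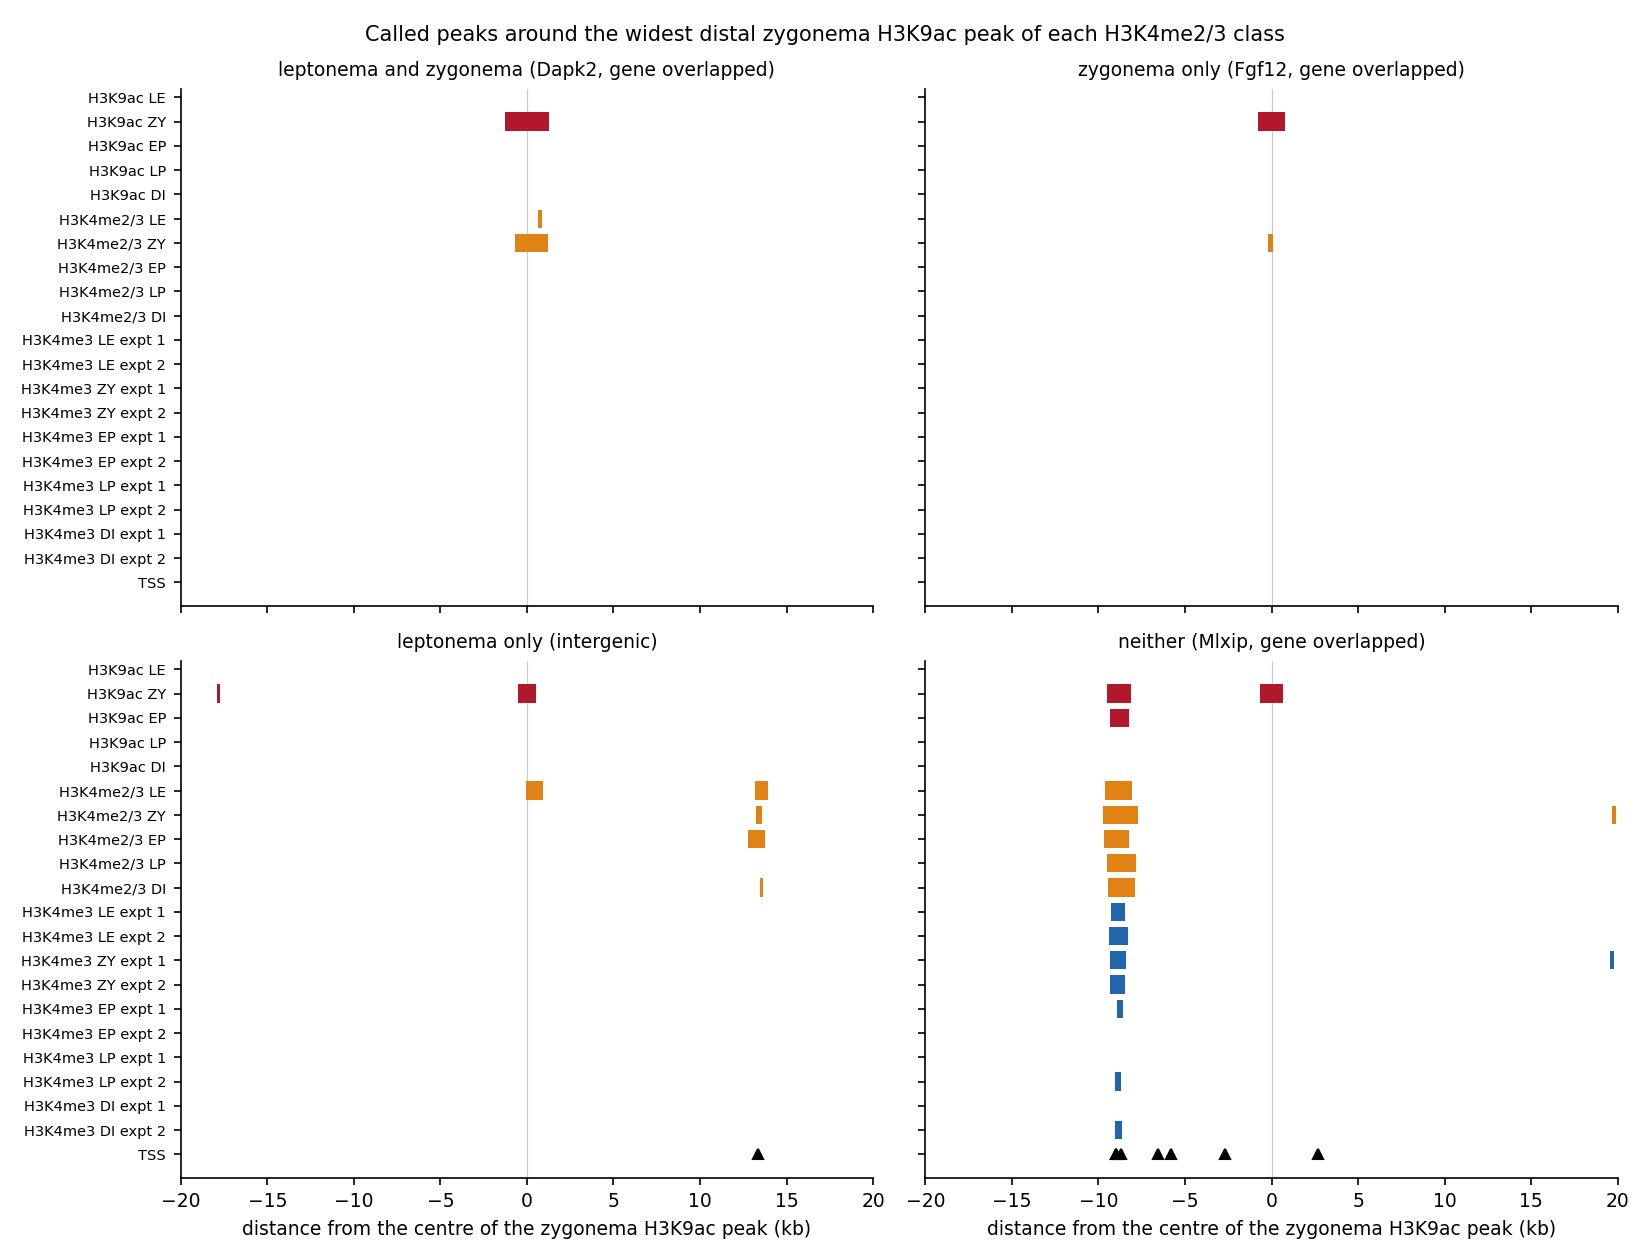
Called peaks within 20 kb of the widest site of each H3K4me2/3 class (x axis, distance from the centre of the zygonema H3K9ac peak in kb), 1 row per list (y axis) with annotated 5′ ends as triangles in the last row. The peaks at Dapk2 (2511 bp) and Fgf12 (1527 bp) had no H3K4me3 peak within 20 kb, and in Mlxip the H3K4me3 peaks left of the site lay over annotated 5′ ends.

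In total 987 of the sites overlapped 974 genes, 897 of them with 1 site and 77 with 2 or more. Mdga1, which encodes a membrane protein of neural adhesion, and Slit3, a secreted guidance ligand, held 4 sites each. Those of Mdga1 were intronic on chromosome 17, at 29870143, 29885076, 29923848 and 29931859, and 2 of them had H3K4me2/3 in leptonema only and 2 in neither list. Those of Slit3 were intronic on chromosome 11, at 35163307, 35384106, 35702797 and 35707731, and the last had H3K4me2/3 in leptonema and zygonema. Slit3 spans 587 kb and Mdga1 142 kb, and sites per gene were not scaled to length. Heg1, Mypn, the nuclear receptor gene Rora, the homeobox gene Zfhx3 and 2010111I01Rik were among the genes that held 3 each. In each of Heg1, Mypn, Rora and Zfhx3, 2 of the 3 sites had an H3K4me2/3 peak in leptonema or zygonema.

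A site in the gene or within 10 kb of a 5′ end was found for 1090 of 20807 protein-coding genes (5.24%). Of 25 recombination genes found in the annotation this held for 1, Hsf2bp, which encodes a partner of BRCA2 (chr17:31996978-31997139, neither list). Of 15 genes of the chromosome axis and synaptonemal complex it held for 1, the cohesin subunit gene Smc3 (chr19:53620909-53621433, neither list). Of 16 genes of spermatogonia and meiotic entry it held for 3. Zbtb16, a factor of spermatogonial stem cells, had 2 sites (chr9:48699916-48700274 and chr9:48806458-48806821) and Dmrt1, a regulator of the switch to meiosis, had 1 (chr19:25575372-25576014), all without leptonema or zygonema H3K4me2/3. Uchl1, a deubiquitinase gene of spermatogonia, had 1 (chr5:66690422-66690698) with H3K4me2/3 in both. Of 20 genes of the pachytene and spermatid programme it held for Piwil1, a piRNA-binding protein gene (chr5:128706934-128707764, 831 bp), with H3K4me2/3 in both. Of 25 marker genes of Sertoli, Leydig, peritubular, endothelial and macrophage cells it held for 1, the endothelial cadherin gene Cdh5 (chr8:104099842-104100078), with H3K4me2/3 in both.

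The sites were spread over all 19 autosomes at 0.696 per Mb, from 0.476 on chromosome 1 to 1.09 on chromosome 11. Another site was within 10 kb of 68 of them (3.97%), and another zygonema H3K9ac peak within 1 kb of 47 (2.74%). Of the sites, 4.85% lay in the last 5 Mb of a chromosome (3.88 to 5.97), a stretch that makes up 3.86% of the autosomes, and the distal peaks with H3K4me3 had 4.74%. At the 14 double-strand break hotspots annotated in the study's source data on chromosomes 1, 10 and 17, none of the sites was found. A zygonema H3K9ac peak was called at 13 of these hotspots, and all 13 peaks were distal with an H3K4me3 call. These 14 hotspots come from regions drawn in the study's figures and not from its genome-wide hotspot map. A peak with an H3K4me3 call is excluded by the rule, so the absence of the sites there is no finding.

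At the limits of the rule, the sites nearest to an annotated 5′ end were just past 500 bp (chr8:26626422-26626978, near Gm32050), at 509 bp (chr2:122233774-122234239, near Sord) and 510 bp (chr19:27857313-27857547, in Rfx3). The peaks just past it, without H3K4me3 and just under 500 bp from a 5′ end, lay near Gm48847, Srf (497 bp) and Cdk7 (495 bp). In all, 488 TSS peaks had no H3K4me3 call. The sites nearest to an H3K4me3 peak were 3 bp from it (among them 1 in an exon of Mosmo and 1 near Vmn1r-ps7), and 74 sites had 1 under 100 bp away. The distal peaks with the smallest overlap, 1, 3 and 3 bp, were at chr3:35676733-35676923, chr4:9136310-9136910 and chr9:103227196-103227549, each with an H3K4me3 peak in 1 library.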

How the data were processed

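Peak lists of 20 ChIP-Seq libraries were used, and 31 of 51 samples were not analysed here. The authors aligned reads with BWA mem 0.7.12 to mm10 and called broad peaks with MACS2 2.1.2 (versions per the submitters' processing notes). Input of the same stage served as control for H3K4me3, and the control for H3K9ac is not given in the sources used here. The deposited files hold only peak positions, without score, signal or depth, so list length may differ with depth. Overlaps of 1 bp or more were computed in Python 3.11.15 (numpy 2.4.6, scipy 1.17.1, matplotlib 3.10.9; bedtools had been planned) and tested on simulated lists. GENCODE M21 gave 125891 distinct 5′ ends. Sequence and repeat masking came from RefSeq GRCm38.p6, the build of mm10. Shares have exact binomial intervals, and stages were compared by exact permutation over the 5 H3K4me2/3 lists. Named sites were the 5 widest of each class, the 3 nearest to each limit, those with H3K9ac at most stages, and those in the genes with most sites or in fixed gene lists. Sites and lists were chosen with earlier results of these data known. Alternatives were other TSS and overlap limits, H3K4me3 calls in 2 or more libraries, wider peaks, equal list sizes, a narrower word window and leaving out each H3K4me3 library, and, added after the data were seen, RefSeq 5′ ends and leaving out the narrowest or repeat-rich peaks. Some named sites are not reported here.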

Additional observations from a re-analysis of the deposited data

How the results depend on the processing

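Peak lists without scores limit all shares to what the callers kept, H3K9ac and H3K4me2/3 had 1 library per stage, and a site without a call can carry the mark below the detection of its library. No paired analysis was possible because the H3K9ac and the H3K4me2/3 lists each come from 1 experiment. Of 134 shares under other settings, 85 stayed within the interval of the reported share and 49 moved, and the cause of the moves was not tested. Values are given as the H3K4me2/3 share at LE, ZY, EP, LP and DI, then the classes. With H3K4me3 sites called in 2 or more libraries there were 4017 sites, with 39.7, 70.9, 13.5, 9.36 and 7.97%, ZY only 36.9%, LE only 5.70%, neither 23.4%, H3K9ac in EP 1.24% and hotspot words 20.5%. With only H3K9ac peaks wider than their median there were 97 sites, with 61.9, 78.4, 34.0, 28.9 and 18.6%, both 54.6%, ZY only 23.7%, LE only 7.22%, neither 14.4%, H3K9ac 5.15% in EP and 0% in LE, and words 19.6%. With 50% of the H3K9ac peak covered, the shares were 37.3, 40.2, 16.3, 11.3 and 9.87%, both 25.6%, ZY only 14.7%, neither 48.0%, and H3K9ac 1.23% in EP and 0% in LE. With the wider peaks of the other lists only, they were 18.9, 14.9, 4.96, 3.39 and 3.04%, both 8.64%, ZY only 6.25%, neither 74.9%, and H3K9ac 0.292% in EP and 0% in LE. With equal list sizes, LE had 22.8%, ZY 22.3% and LP 13.5%, both 12.4%, ZY only 9.92% and neither 67.3%. In a window of 50 bp to either side, the word share was 8.87%. The early-minus-later difference (32.4 points) kept its sign and ranged from 6.45 to 45.0 points under these settings. Counts were 1630 with 5′ ends within 1000 bp, 1501 with H3K4me3 within 1000 bp, and, chosen after seeing the data, 1647 with RefSeq 5′ ends added, 1474 without the narrowest peaks and 1585 without repeat-rich peaks.

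Leaving out each of the 10 H3K4me3 libraries gave 1713 to 3866 sites, the highest without zygonema experiment 1. The H3K4me2/3 shares ranged from 37.0 to 49.1% (LE), 53.8 to 70.1% (ZY), 10.6 to 25.7% (EP), 7.19 to 17.3% (LP) and 6.13 to 14.6% (DI). The classes ranged from 31.4 to 39.1% (both), 17.7 to 38.8% (ZY only), 5.64 to 10.3% (LE only) and 24.2 to 36.04% (neither). H3K9ac ranged from 0.983 to 2.46% (EP) and 0.0259 to 0.107% (LE) and was 0% in LP and DI, and words ranged from 16.0 to 20.6%. The early-minus-later difference ranged from 31.7 to 45.6 points, and its difference from that of the distal peaks with H3K4me3 from -35.8 to -28.2 points.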
